A study of Danio rerio with 39 samples.

Results

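The genes described here are those of antioxidant and glutathione defence in the zebrafish shield-stage embryo, the stage at which gastrulation begins. They were chosen by symbol from a list of 43 names, and 43 of the 32057 genes in the deposited tables were matched to that list. The match used the symbol or an identifier for 33 names, a synonym in RefSeq for 5 (among them nfe2l2a, listed as NFE2L2, and hmox1a, listed as HMOX1) and the symbol without its copy letter for 4 (keap1b is listed as KEAP1 and hmox2a as HMOX2). The name hmox1b was not matched. The names prdx1 and prdx2 share a pair of genes, ENSDARG00000058734 (listed prdx1) and ENSDARG00000025350 (listed PRDX1), and which of them is which copy cannot be told apart from the tables. The names sod3a and sod3b likewise share a pair of genes listed SOD3.

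Entire AB-strain embryos, raised in medium with methylene blue, were exposed from early cleavage to the shield stage to continuous external gamma radiation from caesium-137, and each library was made from a pool of embryos. Each dose rate analysed here came from a different batch and was set beside unexposed controls of that batch. The groups were 3 exposed (0.005 mGy/h) and 4 control libraries in batch I14, 4 exposed (0.05 mGy/h) and 4 control libraries in batch I13, 6 exposed (0.5 mGy/h) and 6 control libraries in batch I32, and 6 exposed (5 mGy/h) and 6 control libraries in batch I30, which made 39 libraries. Embryos of the highest dose rate and the methylation data were not analysed here. As dose rate and batch coincide, exposure was compared within a batch, and a difference between dose rates cannot be told apart from a difference between batches. The study left 8 of the 39 libraries out after a clustering of their expression, namely control replicates 3 and 4 of I13, exposed replicates 1 and 3 of I32, and control replicates 1 and 2 with exposed replicates 2 and 6 of I30. These 8 were read from a picture of that clustering, as the sample labels do not mark them, and every value given for kept libraries rests on that reading. All 39 were used here, and values over the 31 kept libraries are given where they differ.

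The genes fall into a few connected systems. Superoxide dismutases turn superoxide into hydrogen peroxide, which catalase, glutathione peroxidases and peroxiredoxins then remove. Many glutathione peroxidases draw electrons from glutathione, made by the ligase subunits gclc and gclm and by gss and kept reduced by gsr. Many peroxiredoxins draw electrons from thioredoxin instead. In vertebrates the transcription factor Nrf2 (nfe2l2) drives many of these genes under oxidative stress, and Keap1 holds it in check in unstressed cells.

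Depth ranged from 9845688 to 57169053 counts on genes per library with a median of 25507778, and in batch I30 the controls (median 13846841) were shallower than the exposed libraries (median 30203517.5). Levels are given as CPM, the counts of a gene scaled to a common library size. The shield-stage label was checked against 12 germ layer genes, whose summed level was between 2410 and 6630 CPM in every library. By contrast, 4 blood and macrophage markers summed to at most 0.365 CPM and 9 markers of later tissues to at most 5.02 CPM. Markers of the enveloping layer (11 genes, 4550 to 21400 CPM), of the yolk syncytial layer (12 genes, 8250 to 17300 CPM) and of primordial germ cells (6 genes, 258 to 377 CPM) were present in every library, as were 16 maternal oocyte transcripts (537 to 1240 CPM). As these are whole embryos, fewer cells of a type and less RNA per cell cannot be told apart. Exposed replicate 3 at 0.05 mGy/h stood apart in 1 respect, with 35.7% of its read pairs mapping to several places in the genome.

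Transcripts of most of the defence genes were present at the shield stage. Enough counts for a test were present in all 4 comparisons for 32 of the 43 genes. Another 6 were tested in some comparisons only (glrx2, gpx7, gpx9, NFE2L2, nfe2l2b and the thioredoxin reductase gene TXNRD2, ENSDARG00000075923). The remaining 5 were tested in none. These were the extracellular peroxidase gpx3 (30 counts over all libraries), the extracellular dismutases listed SOD3 (43 counts for ENSDARG00000070168 and 18 for ENSDARG00000079183), the glutathione transferase gstp1.1 (5 counts) and a further gene listed TXNRD2 (ENSDARG00000094470), with no count in any library. No change of these 5 genes was detectable at this depth.

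The unexposed level of most defence genes spanned a wider range over the irradiation batches than the exposure estimates. Among the controls of the 4 batches, 27 of 38 tested genes differed (71.1%, edgeR F test over batches, adjusted p under 0.05), beside 75.5% of all 17255 genes tested. The highest batch mean was a median of 1.9 times the lowest. The range ran from 1.115 (gsr) to 7.374 (the glutaredoxin glrx2, with a mean of only 0.217 CPM in the I14 controls). For 33 of the 38 genes this range of control means was larger than each of the exposure effects tested for them, on the log2 scale. A range over 4 means tends to be wider than a single difference, and the share over all genes was not counted. Some of the 33, such as gpx7, gpx9 and glrx5, had no batch difference called. The exceptions to the wider range were hmox2b, gsr, gss, HMOX2 and srxn1.

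Batch I14 held the highest control mean for 16 of the 38 genes and the lowest for 11. Batch I32 held the highest for 13 and the lowest for 1. The mitochondrial peroxiredoxin prdx3 averaged 137.5 CPM in the I14 controls, 45.4 in I13, 47.1 in I32 and 30.78 in I30. KEAP1, the cytoplasmic sensor that binds Nrf2, averaged 132.7, 83.68, 60.55 and 40.01 CPM in the same order. The gene listed prdx1 (ENSDARG00000058734) followed another order, with 47.56 CPM in I14, 58.09 in I13, 134.3 in I32 and 87.34 in I30. In contrast, the glutathione reductase gsr stayed between 22.18 and 24.74 CPM in the 4 batches, and no batch difference was called for it (adjusted p = 0.481) or for gss (adjusted p = 0.632). For prdx3 the I14 controls were spread, with 79.38 CPM in replicate 1 beside 150.1 to 165.8 CPM in the others.

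**Figure D1:**
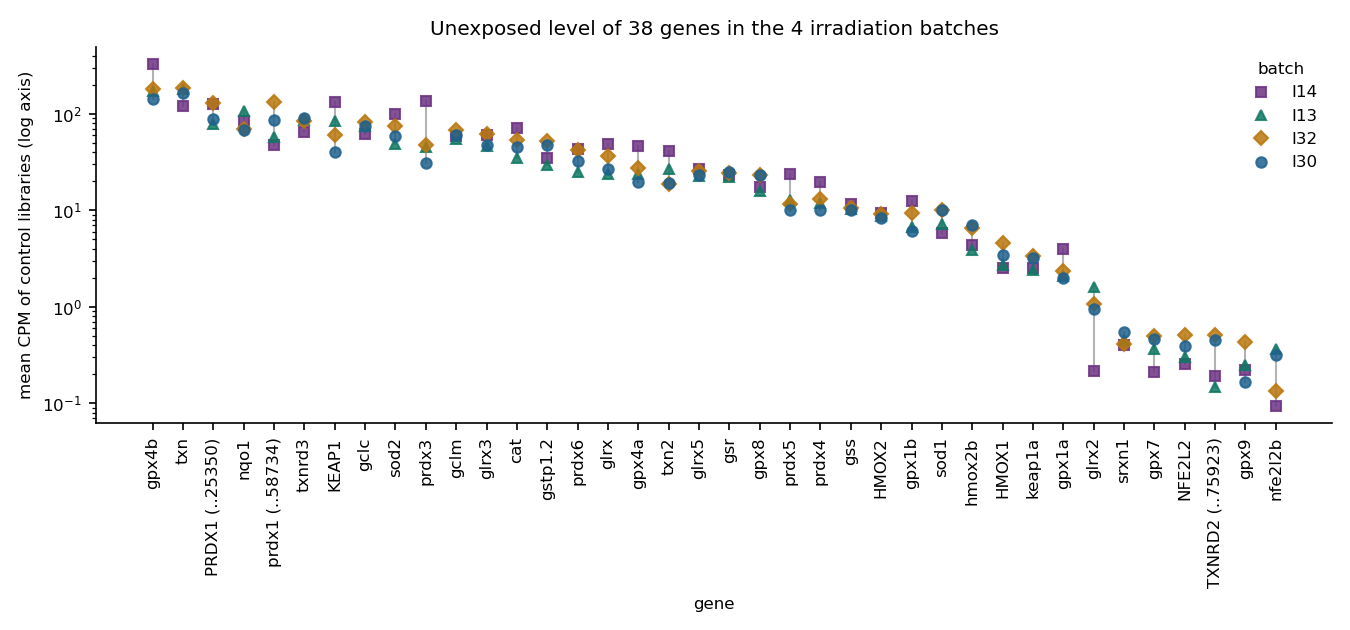
Mean CPM of the control libraries (vertical log axis) of 38 antioxidant genes (horizontal axis, ordered by mean level) in the 4 irradiation batches, with a grey line from the lowest to the highest batch mean; a number in brackets is the end of a gene identifier. The I14 controls (squares) held the highest mean for 16 genes, such as prdx3 with 137.5 CPM against 30.78 in I30, and the lowest for 11. Levels are not corrected for gene length, so heights do not rank the genes.

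At 0.005 mGy/h no defence gene was called different from the I14 controls. The test (edgeR's quasi-likelihood F test, two-sided, with Benjamini-Hochberg adjustment over all genes tested and a threshold of 0.05) called 0 of 32 genes, and 4 had an unadjusted p under 0.05. DESeq2 also called 0 of them, beside 0.955% of all genes. Over all 13935 genes 0% were called, with 1461 (10.5%) at an unadjusted p under 0.05, and the stricter rule of the study (fold change of at least 1.5 and adjusted p under 0.01), referred to below as the DEG rule, also called 0%. The median log2 fold change of the 32 genes was 0.02 beside -0.01 for all genes.

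The 3 largest estimates at this dose rate were in genes with few counts or in groups with a wide spread. The heme oxygenase hmox2b, of the family that breaks down heme, had 1.908, 1.294 and 3.647 CPM in the exposed libraries and 2.222, 4.435, 5.762 and 5.295 CPM in the controls. These groups overlapped, and the log2 fold change was -0.95 ± 0.41 (SE, adjusted p = 0.452 in edgeR), or -1.49 without exposed replicate 4. A fit that paired pools by replicate number, given below and resting on 3 pairs, called hmox2b lower. Control replicate 1, the lowest of the controls at 2.222 CPM, had no partner in it. The exposed and control pools numbered 4, which it paired, correlated at r = -0.15. The peroxidase gpx1a, which reduces hydrogen peroxide, had 5.685, 8.31 and 4.514 CPM after exposure and 4.226, 4.842, 3.103 and 3.818 CPM without it, a log2 fold change of 0.59 ± 0.24 (adjusted p = 0.431 in edgeR). KEAP1 had 171.9, 270.2 and 132.7 CPM beside control values of 122.9, 132.4, 149.8 and 126 CPM. Exposed replicate 3 was the highest of the 7 libraries for KEAP1 and for gpx1a, as it was for the summed ribosomal protein transcripts (121200 CPM). The log2 fold change of KEAP1 was 0.50 ± 0.19 (adjusted p = 0.412 in edgeR). Without this library the estimates were 0.18 for KEAP1 and 0.33 for gpx1a. The smallest adjusted p of the 32 genes was that of gpx8 (0.383 in edgeR, -0.39 ± 0.14). It had 12.29 to 15.73 CPM after exposure and 16.77 to 18.68 CPM in controls. These groups did not overlap, nor did those of prdx4 (22.44 to 24.22 against 16.85 to 21.96 CPM, 0.22 ± 0.13, adjusted p = 0.599 in edgeR). The share of all genes without overlap was not counted. The 95% interval of the fold change stayed within 1.5-fold in either direction for 17 of the 32 genes and reached beyond it for 15.

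At 0.05 mGy/h the defence genes again showed no called change. Of 36 genes tested, 0 were called by edgeR, 0 had an unadjusted p under 0.05, and 0 were called by DESeq2 (0.00791% of all genes). Among all 15814 genes, 0.00632% were called, 1.37% had an unadjusted p under 0.05 and 0% passed the DEG rule. Over the libraries kept by the study, 0 of 37 defence genes were called, beside 0.018% of 16667 genes, 0% by the DEG rule. An unadjusted p under 0.05 was found for 5 of the 37 (13.5%), all higher, beside 8.92% of all genes. The median log2 fold change was 0.01 over all libraries and 0.10 over the kept libraries.

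Over all libraries, several genes were close to equal in both groups. The manganese superoxide dismutase sod2, which works in mitochondria, had 45.31, 53.12, 39.31 and 51.99 CPM in exposed libraries and 42, 37.98, 64.16 and 48.82 CPM in controls. Control replicate 3 was the highest and control replicate 2 the lowest of these 8 libraries, and the log2 fold change was -0.03, with a 95% interval from -0.38 to 0.33. The phospholipid hydroperoxide peroxidase gpx4b, a selenoenzyme that repairs peroxidised membrane lipids, had 158.3, 184.8, 168.8 and 176 CPM against 148.5, 126.8, 227.2 and 189.8 CPM. The exposed values of gpx4b lay inside the range of the controls, and its log2 fold change was -0.01, with a 95% interval from -0.36 to 0.34. Over the kept libraries, without control replicates 3 and 4, gpx4b gave 0.30 ± 0.116 (adjusted p = 0.485 in edgeR). There sod2 gave 0.23 ± 0.145 (adjusted p = 0.665 in edgeR). Over all libraries the interval stayed within 1.5-fold for 28 of the 36 genes. The 3 genes with the largest estimates all had under 1 CPM in each of the 8 libraries. They were the endoplasmic reticulum peroxidase gpx7 (log2 fold change of 0.70 ± 0.39), the sulfiredoxin srxn1, which repairs overoxidised peroxiredoxins (-0.32 ± 0.35), and the Nrf2 copy nfe2l2b (0.25 ± 0.46), each with an adjusted p of 1 in edgeR. Single libraries moved these estimates, to 1.101 for gpx7 without control replicate 4 and to -0.50 and -0.19 for srxn1 without exposed replicate 2 and control replicate 4. For nfe2l2b they ran from 0.02 without control replicate 3 to 0.55 without control replicate 2.

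At 0.5 mGy/h edgeR called sod2 and the glutaredoxin glrx lower, by less than 1.5-fold, and no defence gene higher. These 2 were the only calls among 37 genes (5.41%, edgeR), beside 7.51% of all 14906 genes. The share among the defence genes was thus no larger than that of all genes. None of the 37 passed the DEG rule, which 0.416% of all genes passed. The estimates leaned downward, with 27 of 37 below 0 and a median of -0.14 beside -0.01 for all genes. At an unadjusted p under 0.05 there were 12 of the 37 (32.4%), 11 lower and 1 higher, beside 25.4% of all genes.

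In the I32 controls sod2 had between 69.11 and 83.59 CPM with a median of 73. After exposure it had between 53.56 and 64.37 CPM with a median of 61.89. Every exposed library was below every control, and the log2 fold change was -0.29 ± 0.08 (0.82-fold, adjusted p = 0.0276 in edgeR). The call was lost, at adjusted p between 0.05 and 0.0828, without control replicate 2 or 3 or without exposed replicate 4 or 5, while the log2 fold change stayed between -0.31 and -0.25 in every fit that left out 1 library. For glrx, the cytosolic glutaredoxin that removes glutathione from proteins, control values ran from 32.01 to 41.2 CPM with a median of 37.35, and exposed values from 18.91 to 33.01 CPM with a median of 26.59. Exposed replicates 2 and 3 reached into the range of the controls. The log2 fold change was -0.46 ± 0.13 (0.72-fold, adjusted p = 0.0397 in edgeR). The call was lost in 6 of the 12 fits that left out 1 library (without control replicate 1, 2 or 5 or exposed replicate 4, 5 or 6, adjusted p 0.0685 to 0.102), with estimates from -0.53 to -0.39. Counts on either strand gave -0.36 for glrx, with an adjusted p of 0.508.

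**Figure D2:**
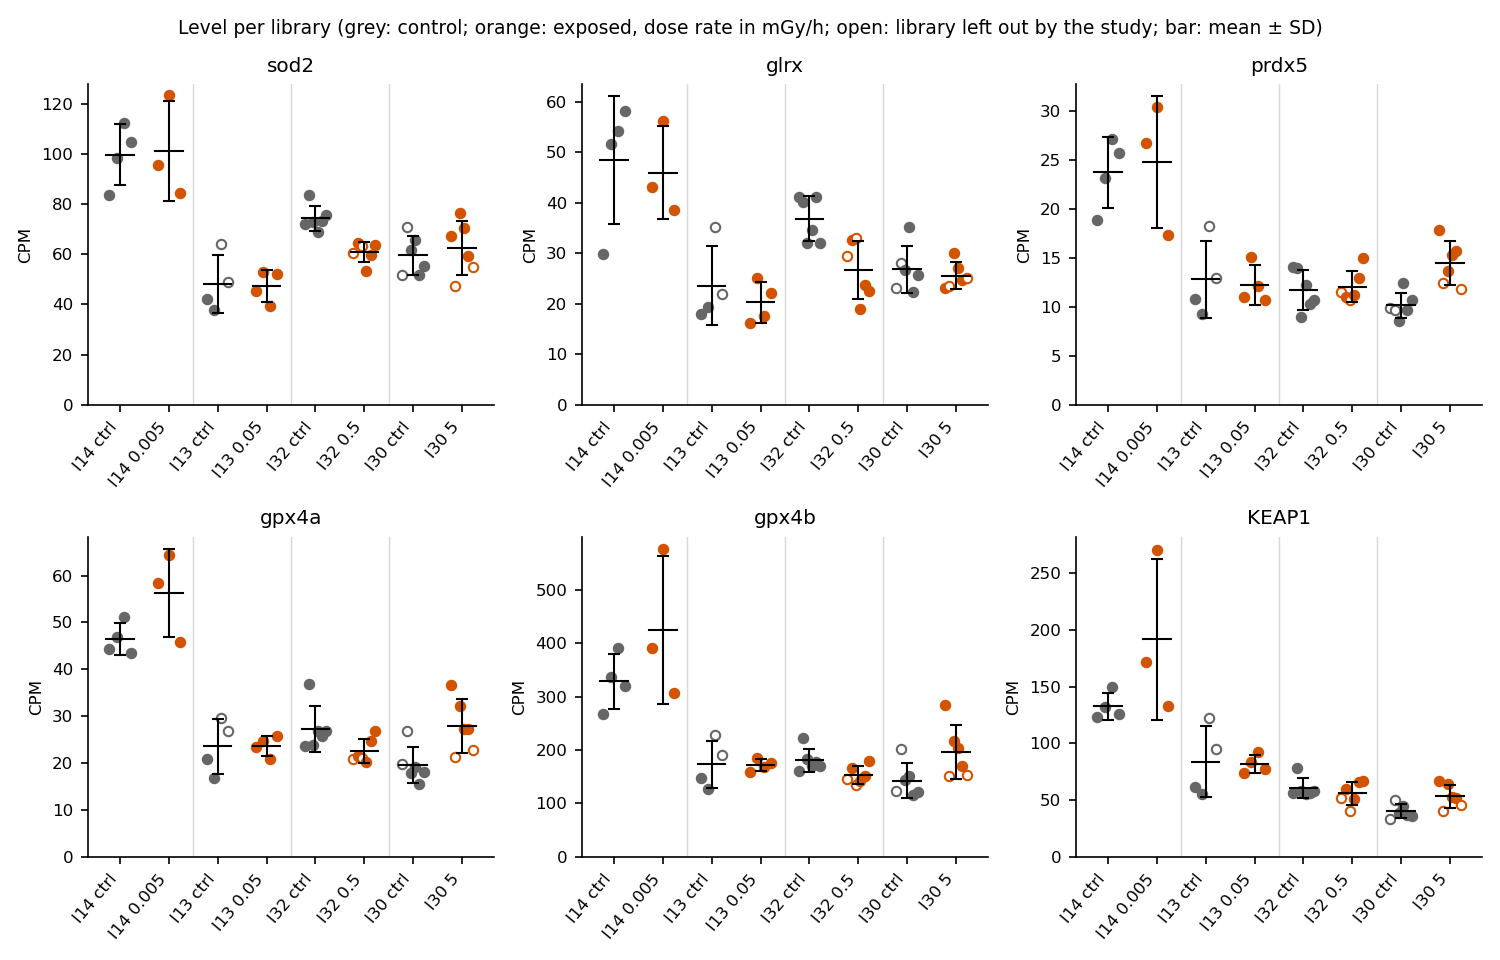
CPM (vertical axis from 0) of 6 genes in each of the 39 libraries, by group along the horizontal axis with controls in grey and exposed libraries in orange, open symbols for the 8 libraries left out by the study, and black bars for the mean and SD. All 6 sod2 values at 0.5 mGy/h, from 53.56 to 64.37 CPM, lie below the I32 controls, whereas the prdx5 and gpx4a values at 5 mGy/h overlap those of the I30 controls. The means of both I14 groups lie above those of every other group in each of the 6 genes.

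None of the 4 genes of glutathione supply was called by edgeR at 0.5 mGy/h over all libraries. The modifier subunit gclm had between 45.66 and 66.79 CPM (median 54.48) after exposure and between 63.61 and 74.97 CPM (median 68.47) in controls. Its log2 fold change was -0.32 ± 0.10 (adjusted p = 0.0557 in edgeR). The catalytic subunit gclc, the rate-limiting enzyme of the pathway, had -0.28 ± 0.11 (adjusted p = 0.126 in edgeR), and gsr and gss had -0.12 (adjusted p = 0.473) and -0.10 (adjusted p = 0.623). Over the libraries kept by the study gclm (-0.44, adjusted p = 0.0122) and gclc (-0.42, adjusted p = 0.0264) were called lower by edgeR. Of the 6 peroxiredoxins none was called by edgeR, and 5 had estimates below 0. The lowest were prdx3 (-0.35, adjusted p = 0.0767 in edgeR) and PRDX1 (ENSDARG00000025350), with -0.34 (adjusted p = 0.0644 in edgeR).

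The glutaredoxin glrx2 had the largest estimate in the other direction. Control values were between 0.6921 and 1.548 CPM with a median of 1.108, and exposed values between 1.239 and 2.205 CPM with a median of 1.828. All 6 exposed libraries lay above the median of the controls, although the groups overlapped, and the log2 fold change was 0.74 ± 0.24 (1.67-fold, adjusted p = 0.0594 in edgeR). For srxn1, with 0.2212 to 1.08 CPM over the libraries of the batch, the estimate was 0.65 ± 0.35 (adjusted p = 0.256 in edgeR).

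Without the 2 exposed libraries that the study left out, edgeR called 5 of 37 defence genes (13.5%), beside 11.6% of 15144 genes and 2.35% by the DEG rule. Lower were sod2 (-0.31), glrx (-0.60), gclm and gclc, and glrx2 was higher (0.89, adjusted p = 0.0339). DESeq2 called 8 of the 32 defence genes to which it gave an adjusted p over all libraries (25%), beside 13.2% of all genes. Lower were sod2, glrx, gclm, gstp1.2, prdx3, prdx6 and PRDX1 (ENSDARG00000025350), and glrx2 was higher. With the joint fit over 8 groups neither sod2 (adjusted p = 0.142) nor glrx (adjusted p = 0.0889) was called.

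At 5 mGy/h the peroxiredoxin prdx5 and the peroxidase gpx4a rose about 1.4-fold, and no defence gene fell past the threshold. These were 2 of 34 genes tested (5.88%, edgeR), beside 9.1% of all 15015 genes. None passed the DEG rule, which 0.533% of all genes passed. The estimates of 20 genes were above 0 and those of 14 below, with a median of 0.05 beside -0.05 for all genes.

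The atypical peroxiredoxin prdx5, found in mitochondria and peroxisomes in mammals, had between 8.501 and 12.38 CPM in the I30 controls with a median of 9.776. After exposure it had between 11.81 and 17.88 CPM with a median of 14.5. Of the exposed libraries, replicate 6 alone lay below the highest control, replicate 4, and the log2 fold change was 0.49 ± 0.13 (1.40-fold, adjusted p = 0.0261 in edgeR). The phospholipid hydroperoxide peroxidase copy gpx4a (ENSDARG00000068478) had control values between 15.52 and 26.82 CPM with a median of 18.65, and exposed values between 21.36 and 36.61 CPM with a median of 27.31. Control replicate 2 reached into the range of the exposed libraries, and the log2 fold change was 0.48 ± 0.14 (1.40-fold, adjusted p = 0.0418 in edgeR). Both calls were sensitive to single libraries. That of prdx5 was lost in 7 of 12 fits without 1 library (exposed replicates 1, 3, 4 and 5 and control replicates 3, 5 and 6, adjusted p 0.0515 to 0.0687), and that of gpx4a in 9 of 12 (exposed replicates 1, 3, 4 and 5 and control replicates 1, 3, 4, 5 and 6, adjusted p 0.0543 to 0.105). The estimates of prdx5 stayed between 0.41 and 0.56 and those of gpx4a between 0.38 and 0.58. Counts on either strand gave 0.32 for prdx5, with an adjusted p of 0.0879.

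The sister copy gpx4b (ENSDARG00000076836) had between 116.5 and 202.5 CPM in controls with a median of 132.8, and between 150.9 and 283.9 CPM after exposure with a median of 186.4. Its log2 fold change of 0.44 ± 0.15 did not pass the threshold (adjusted p = 0.0733 in edgeR). KEAP1 gave a similar estimate, with 33.58 to 50.13 CPM (median 37.73) in controls, 40.18 to 66.57 CPM (median 52.07) in exposed libraries and a log2 fold change of 0.39 ± 0.12 (adjusted p = 0.0552 in edgeR). All 6 exposed libraries lay above the median of the controls for each of prdx5, gpx4a, gpx4b and KEAP1. Other glutathione peroxidases gave 0.60 ± 0.30 for gpx7, at about 1 CPM or less, and -0.14 ± 0.11 for gpx8. The genes of glutathione supply were not called here either, with -0.27 for gclc (adjusted p = 0.0672 in edgeR), -0.21 for gsr, -0.13 for gclm and -0.03 for gss. Superoxide dismutases and catalase gave 0.07 for sod1, 0.05 for sod2 and -0.18 for cat, none of them called.

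Over the 8 of 12 libraries that the study kept in this batch, edgeR called 9 of 33 defence genes (27.3%), beside 25.4% of 14529 genes. Higher were gpx4a (0.78), gpx4b (0.70), gpx1b (0.63), prdx3 (0.63), prdx5 (0.59), KEAP1 (0.57), prdx4 (0.53) and PRDX1 (ENSDARG00000025350, 0.50), and gclc was lower (-0.43). The DEG rule took 3 of the 33 defence genes, beside 7.97% of all genes. The share of defence genes called was again near that of all genes. DESeq2 over all 12 libraries called 5 of 32 (15.6%), beside 17% of all genes. These were prdx5, gpx4a, gpx4b, KEAP1 and glrx3, all higher.

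**Figure D3:**
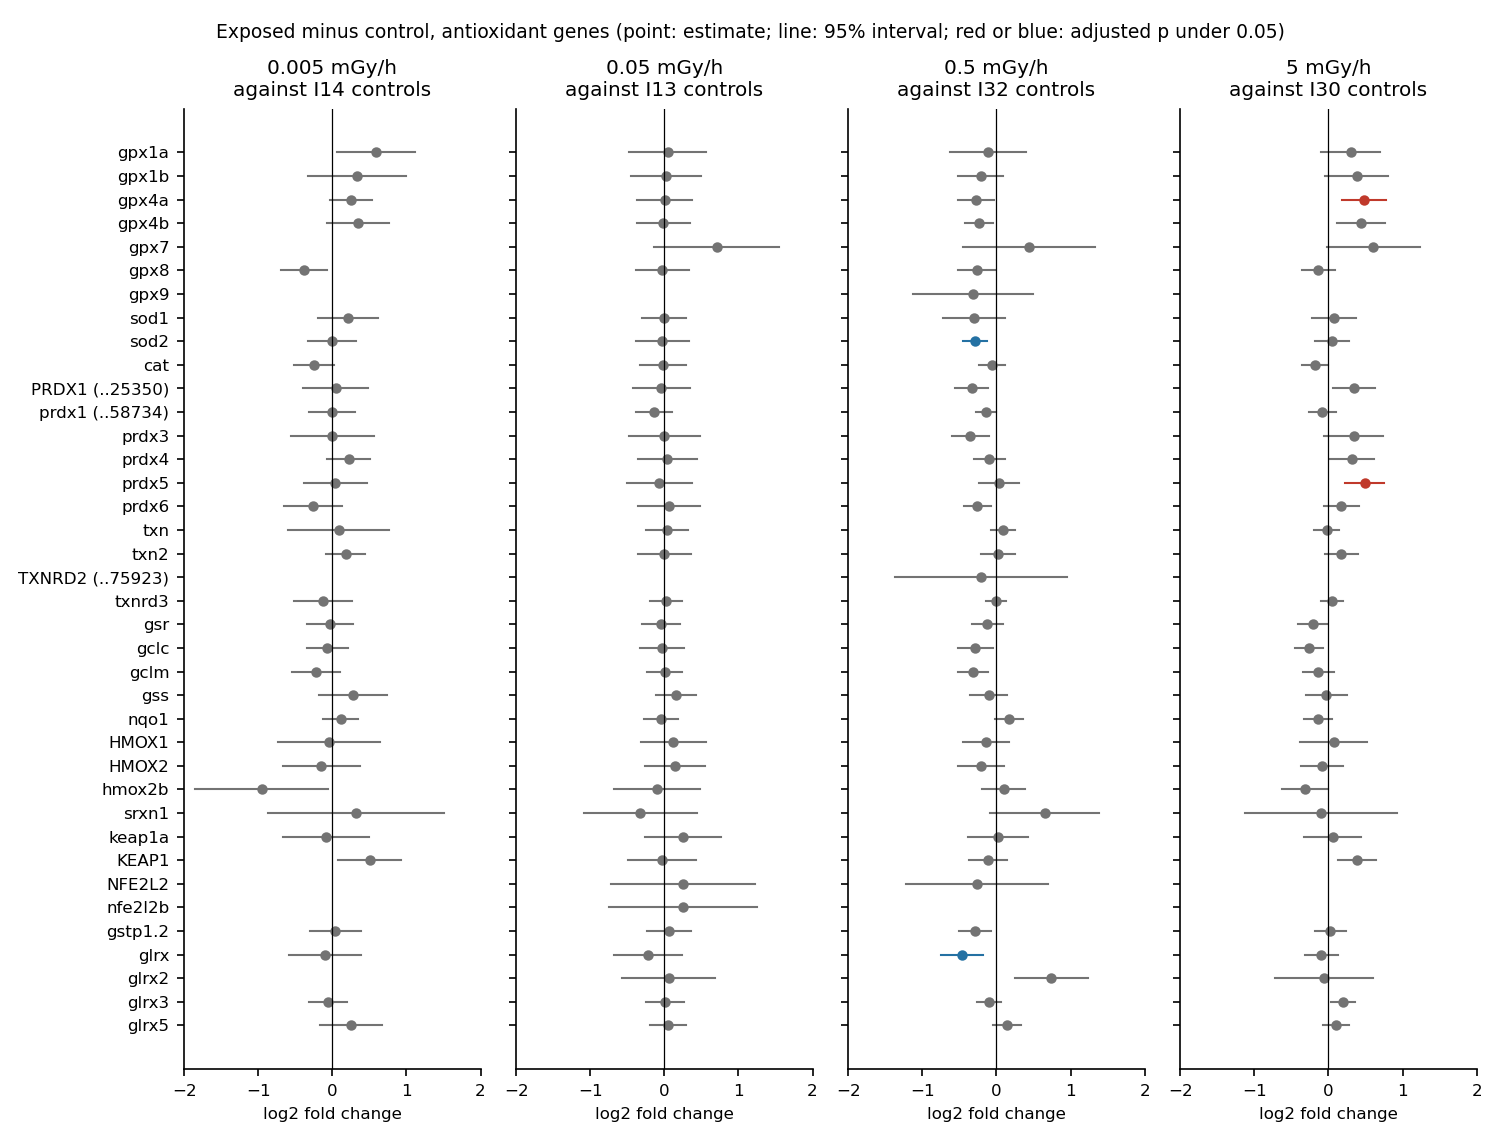
Log2 fold change of exposed over control libraries (horizontal axes) for each tested antioxidant gene (rows) at 4 dose rates (panels), with points for the estimate and lines for the 95% interval, red or blue where the adjusted p was under 0.05; a number in brackets is the end of a gene identifier. Coloured are sod2 and glrx at 0.5 mGy/h, both lower, and prdx5 and gpx4a at 5 mGy/h, both higher. Nothing is coloured at 0.005 or 0.05 mGy/h.

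Other transcripts moved beside the defence genes at 5 mGy/h. Of 79 cytosolic ribosomal protein genes tested, 41 were called higher and 0 lower, with a median log2 fold change of 0.45. Their summed level was 25800 to 40180 CPM in controls and 33930 to 60820 CPM in exposed libraries. Of 10 enveloping layer markers, 8 were called higher and 0 lower, with a median of 0.41 and sums of 4552 to 6476 CPM and 5896 to 9043 CPM. Of 10 yolk syncytial layer markers 1 was higher and 1 lower, of 12 germ layer genes 1 and 1, of 6 germ cell genes 0 and 1, and of 16 maternal transcripts 0 and 0. At 0.5 mGy/h the maternal transcripts had a median of -0.24 with 2 of 16 called lower, the ribosomal protein genes -0.05 with 1 higher and 1 lower of 78, and the enveloping layer markers -0.14 with 1 of 10 higher. Among yolk syncytial layer markers 2 of 10 were higher there, and among germ layer genes 1 of 12 was lower. At 0.005 mGy/h 77 of 78 ribosomal protein genes had estimates above 0 (median 0.39), none called. The part of these genes in the changes of the defence genes was not tested.

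Within groups, the libraries rich in ribosomal protein transcripts were also the ones rich in gpx4b, gpx4a and KEAP1. In 7 of the 8 groups the library with the most gpx4b was also the one with the most gpx4a, and in 7 the one with the most KEAP1. In 7 of 8 it had the highest sum of ribosomal protein genes and in 6 of 8 the highest sum of enveloping layer markers. The exposed group at 0.05 mGy/h departed in all 4 of these respects and the I14 controls in the last. The same library was also highest in prdx5 and in sod2 in 6 of 8 groups, in prdx4 and in txn in 5 and in gclc in 2, and it had the highest sum of maternal transcripts in 3. As an example, control replicate 2 of I32 had 221.7 CPM of gpx4b, 36.84 of gpx4a and 78.56 of KEAP1, beside 49570 CPM of ribosomal protein transcripts, each the highest of the 6 controls. These genes were chosen for this comparison after their values were seen. The counts of groups describe libraries that also share their batch, and all genes of a library were scaled by the same normalised size.

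**Figure D4:**
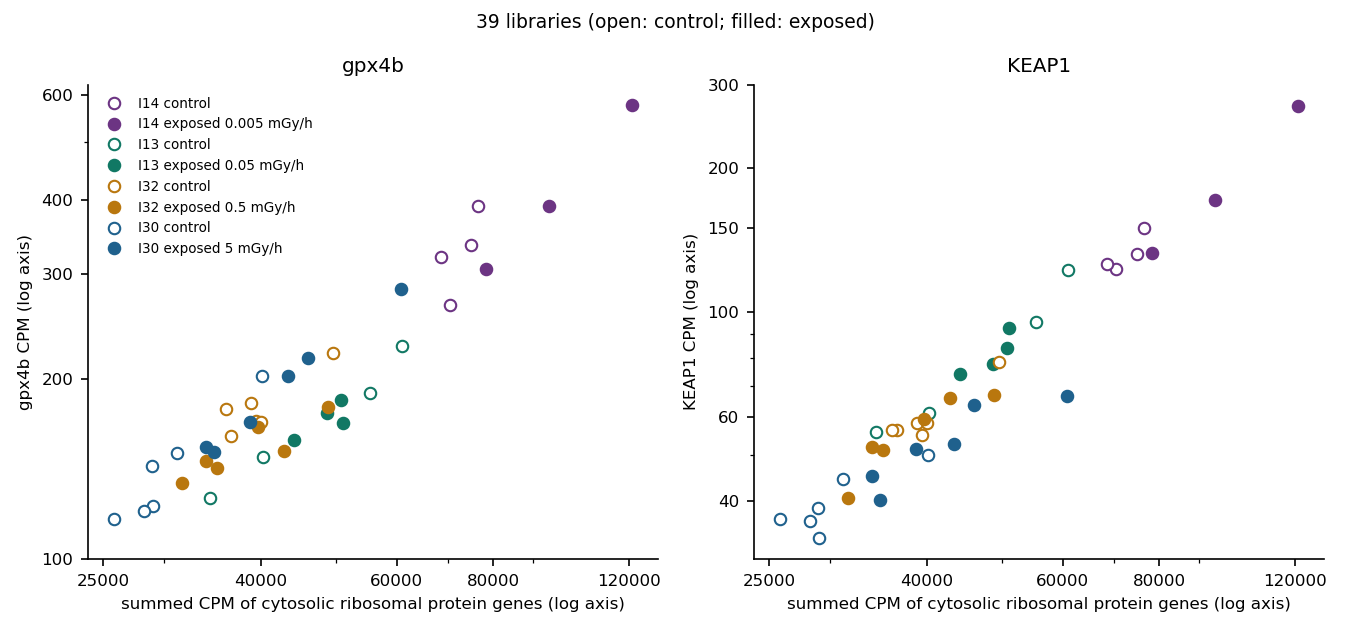
CPM of gpx4b (left) and KEAP1 (right) against the summed CPM of the cytosolic ribosomal protein genes in the 39 libraries, all axes logarithmic, with colours for the batches, open symbols for controls and filled symbols for exposed libraries. The exposed library at 0.005 mGy/h with 270.2 CPM of KEAP1 has the highest ribosomal sum. Libraries of the 4 batches lie along a rising band. On the horizontal axis all exposed I14 libraries (78350 to 121200 CPM) lie beyond their controls (68450 to 76390 CPM), and exposed I30 libraries reach further (33930 to 60820 CPM) than theirs (25800 to 40180 CPM).

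The exposure effects at 5 and 0.5 mGy/h differed for a few of the defence genes. The difference was tested in the joint fit over 8 groups as an interaction (edgeR, 17255 genes), and was called for 4 of 38 defence genes (10.5%), beside 13.2% of all genes. The 4 were gpx4a (0.79 ± 0.19, adjusted p = 0.0111), gpx4b (0.70 ± 0.21, adjusted p = 0.0263), PRDX1 (ENSDARG00000025350, 0.70 ± 0.21, adjusted p = 0.028) and the cytosolic iron-sulfur glutaredoxin glrx3 (0.33 ± 0.11, adjusted p = 0.0459). In each of them the estimate was below 0 at 0.5 mGy/h and above 0 at 5 mGy/h. For gpx4a the joint fit gave -0.28 and 0.51, and for gpx4b -0.24 and 0.46.

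At 0.5 mGy/h gpx4a had 20.34 to 26.78 CPM (median 21.38) in exposed libraries and 23.69 to 36.84 CPM (median 26.26) in controls. In the same batch gpx4b had 133.9 to 179.5 CPM (median 148.9) beside 160.9 to 221.7 CPM (median 174.1). For both genes the groups overlapped and 1 of the 6 exposed libraries lay above the median of the controls. PRDX1 had 92.84 to 112.1 CPM (median 104.1) after exposure to 0.5 mGy/h and 93.32 to 168.3 CPM (median 127.6) in the controls. At 5 mGy/h it had 88.65 to 144.4 CPM (median 113.6) beside 65.8 to 116.9 CPM (median 89.62), a log2 fold change of 0.34 ± 0.13 (adjusted p = 0.103 in edgeR). All 6 exposed libraries were thus below the median of the controls at 0.5 mGy/h, and 5 of 6 were above it at 5 mGy/h. The values of glrx3 were 53.98 to 61.95 CPM (median 58.23) at 0.5 mGy/h against 52.71 to 68.17 CPM (median 64.17), with -0.10 ± 0.08 (adjusted p = 0.446 in edgeR). At 5 mGy/h they were 50.72 to 61.3 CPM (median 55.1) against 40.78 to 52.06 CPM (median 47.97), with 0.20 ± 0.08 (adjusted p = 0.104 in edgeR). The groups of glrx3 overlapped at both dose rates, with all 6 exposed libraries below the control median at 0.5 and above it at 5 mGy/h.

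Of the 24 fits that left out 1 library of these batches, the difference was called in 24 for gpx4a, 19 for gpx4b, 18 for PRDX1 and 10 for glrx3. For gpx4b it was lost without exposed replicate 1 or 3 or control replicate 1 or 5 of I30 or control replicate 2 of I32 (adjusted p 0.0525 to 0.0646). For PRDX1 it was lost without the same libraries and without exposed replicate 4 of I32 (adjusted p 0.0531 to 0.0672). For glrx3 the fits that lost it left out exposed replicate 1, 3 or 4 or control replicate 1, 3, 5 or 6 of I30, or exposed replicate 1, 4 or 5 or control replicate 3, 4, 5 or 6 of I32 (adjusted p 0.0513 to 0.0857).

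Neither prdx5 (0.48, adjusted p = 0.116), sod2 (0.36, adjusted p = 0.127) nor glrx (0.39, adjusted p = 0.233) was called for a difference, although each had been called at a single dose rate. For gclc the effects were close, with a difference of 0.05 ± 0.16 (adjusted p = 0.876). Of 34 defence genes tested at both dose rates, 15 (44.1%) were lower at 0.5 and higher at 5 mGy/h, 9 (26.5%) lower at both, 5 (14.7%) higher at both and 5 higher at 0.5 and lower at 5 mGy/h. The corresponding shares of 14648 genes were 28.2%, 23.6%, 15.2% and 33%. These counts of signs include genes that passed no test.

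**Figure D5:**
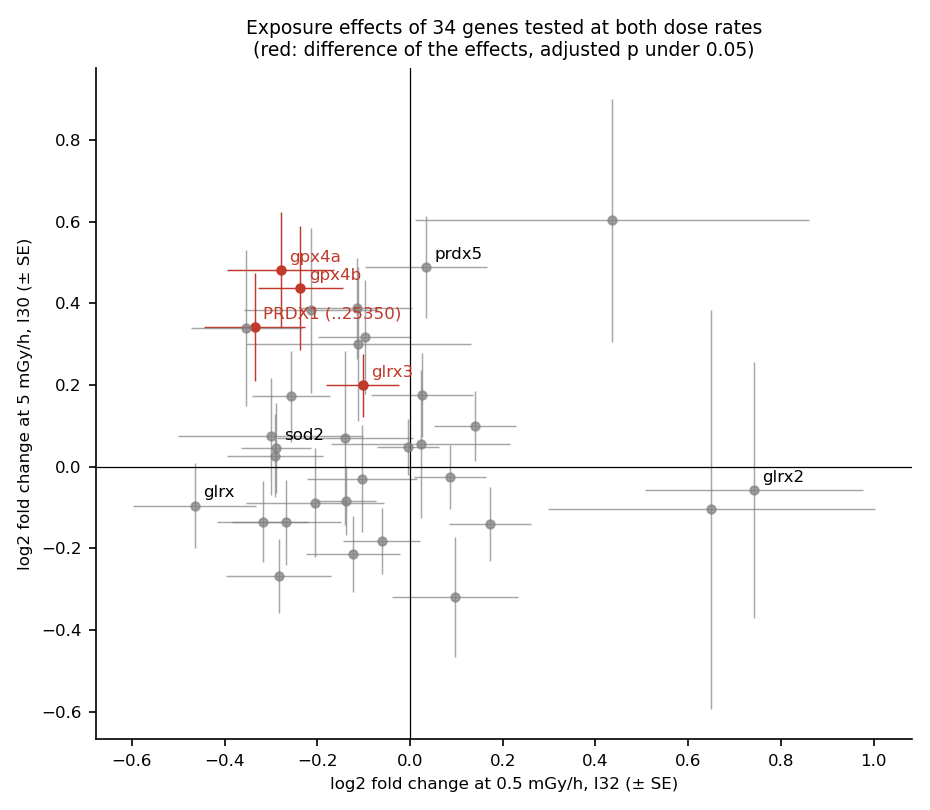
Log2 fold change at 5 mGy/h (vertical axis) against that at 0.5 mGy/h (horizontal axis) for 34 antioxidant genes tested at both dose rates, with lines for the SE of each estimate and red for the genes whose difference of effects was called; a number in brackets is the end of a gene identifier. The red genes gpx4a, gpx4b, PRDX1 and glrx3 lie at the upper left. The 15 genes of that quadrant were lower at 0.5 and higher at 5 mGy/h by their estimates.

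The genes of Nrf2 and Keap1, and nqo1, HMOX1 and gstp1.2 among their known targets, were not called by edgeR over all libraries. NFE2L2 was tested at 2 dose rates, with log2 fold changes of 0.25 ± 0.45 at 0.05 mGy/h and -0.26 ± 0.46 at 0.5 mGy/h, on means between 0.3044 and 0.5068 CPM. The second Keap1 copy keap1a lay between -0.08 and 0.25 in the 4 comparisons. Among targets of Nrf2, the quinone reductase nqo1 gave 0.11, -0.05, 0.17 and -0.14 in order of dose rate, with 95% intervals that stayed within 1.5-fold in each. Its mean was 78.55 CPM at 0.5 mGy/h beside 69.7 in controls, and 62.69 CPM at 5 mGy/h beside 67.57. HMOX1, the stress-inducible heme oxygenase, gave -0.04, 0.12, -0.14 and 0.07 on means of 2.492 to 4.551 CPM. The pi-class glutathione transferase gstp1.2 gave 0.04, 0.06, -0.29 and 0.03. DESeq2 called gstp1.2 lower at 0.5 mGy/h (-0.31, adjusted p = 0.0491) and KEAP1 higher at 5 mGy/h (0.42, adjusted p = 0.0247). KEAP1 at 5 mGy/h, and the targets gclc and gclm at 0.5 mGy/h, were called in the kept libraries as given above. The estimates of the thioredoxin txn, an electron donor of many peroxiredoxins, lay between -0.02 and 0.09 in the 4 comparisons. At 0.005 mGy/h its 95% interval ran from -0.60 to 0.77. Control replicate 1 (194.4 CPM) and exposed replicate 4 (190.8 CPM) stood apart there from the rest of I14 (93.97 to 98.92 CPM). These libraries were also the lowest of I14 for prdx3 (79.38 and 101 CPM) and glrx (29.76 and 38.48 CPM). The mitochondrial txn2 lay between 0.00 and 0.18, and txnrd3, which reduces thioredoxin, between -0.13 and 0.05.

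The remaining genes were not called by edgeR over all libraries, and DESeq2 called prdx6 alone among them, lower at 0.5 mGy/h (-0.27, adjusted p = 0.0222). In order of dose rate, the log2 fold changes of catalase (cat) were -0.24, -0.02, -0.06 and -0.18, and those of gpx8, a peroxidase of the endoplasmic reticulum, -0.39, -0.03, -0.27 and -0.14. Over the kept libraries cat gave 0.06 at 0.05 mGy/h, but over all libraries both genes were below 0 at each dose rate. The iron-sulfur glutaredoxin of mitochondria, glrx5, was above 0 at each, with 0.25, 0.05, 0.14 and 0.10. The mean CPM of gclc and of gsr was also lower than in controls after each exposure. Constant signs were not tested, and their share over all genes was not counted. The copper-zinc dismutase sod1 gave 0.21, -0.01, -0.30 and 0.07, and gpx1b gave 0.33, 0.02, -0.21 and 0.38. Among peroxiredoxins, prdx4, which works in the secretory pathway, gave 0.22, 0.04, -0.10 and 0.32, and prdx6 gave -0.26, 0.06, -0.26 and 0.17. HMOX2, the constitutive heme oxygenase, gave -0.15, 0.15, -0.20 and -0.09. At 0.5 mGy/h, the single dose rate at which they were tested, gpx9 gave -0.32 ± 0.39 and TXNRD2 (ENSDARG00000075923) -0.21 ± 0.56.

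Genes around these systems, 112 in 8 lists, were examined with the same edgeR test. At 0.005 and 0.05 mGy/h 0 of 94 and 0 of 95 were called, beside 0% and 0.00632% of all genes. At 0.5 mGy/h 4 of 94 rose and 1 fell (5.32%), beside 7.51% of all genes. The Nrf2 relative nfe2l3 rose by 0.61 ± 0.09 (56.51 against 36.98 CPM, adjusted p = 0.00472), the only call among 7 Nrf2 partners and regulators tested. The amino acid transporter subunit slc3a2a, which partners the cystine transporter, rose by 0.54 ± 0.14, and the sestrin sesn3 by 0.35 ± 0.09. The thioredoxin-like splicing protein txnl4a rose by 0.29 ± 0.09, and selenot1b, a selenoprotein of the endoplasmic reticulum, fell by 0.32 ± 0.08.

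At 5 mGy/h 6 of 95 rose and 7 fell (13.7%), beside 9.1% of all genes. Among 17 genes of NADPH supply, ALDH1L1 fell by 0.71 ± 0.21 (1.88 against 2.979 CPM), while the transaldolase TALDO1 rose by 0.44 ± 0.11 (86.94 against 62.93 CPM). Of 9 other glutathione transferases mgst3b rose (0.33) and gstr fell (-0.27). Among 17 selenoprotein genes selenon rose (0.35) and selenos fell (-0.61). Of 16 other thioredoxin and redox repair genes oxsr1a (-0.55), TXNDC17 (-0.46) and oxsr1b (-0.41) fell. The kinases oxsr1a and oxsr1b are named for oxidative stress but act mainly on ion transport in mammals. In the remaining lists slc3a2a (0.44, of 11 genes of cysteine and glutathione turnover other than gclc, gclm and gss), the iron regulatory protein IREB2 (0.44, of 10 genes of iron and metal buffering) and the oxidase organiser noxo1a (0.43, of 8 genes that make reactive oxygen species) rose. None of the 7 Nrf2 partners and regulators was called at this dose rate. Of all the genes in these lists, slc3a2a alone was called at both dose rates, with a rise in each.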

How the data were processed

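Messenger RNA of pooled shield-stage embryos was selected with poly-dT beads and sequenced in paired, strand-specific libraries. Per the labels and the study's methods, the authors trimmed adapters with TrimGalore, mapped reads with STAR to GRCz11 using Ensembl junctions, and deposited the counts of read pairs per Ensembl gene, without normalisation, for either strand and for each strand. The column for the strand that carried nearly all counts was used, as at most 2.089% of strand counts fell on the other strand. Between 24.39% and 46.38% of pairs per library were not counted for a gene and stayed out of library sizes. These include the pairs that mapped to several places (14.82% to 35.72% of all pairs).

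Genes were matched by symbol, RefSeq synonym or identifier. No sequence, gene length or coordinate was used here, so neither promoter motifs nor levels between genes were compared. Each dose rate was compared with the controls of its batch in edgeR 4.0.16 (R 4.3.3, limma 3.58.1) with TMM normalisation, a filter on low counts (minimum count of 10, minimum total of 15) and the two-sided quasi-likelihood test. P-values were adjusted over all tested genes with the Benjamini-Hochberg method, and a call had an adjusted p under 0.05. The study used DESeq2 and a fold change of at least 1.5 with an adjusted p under 0.01, and DESeq2 1.42.0 was an alternative here. The interaction and the batch test came from a joint fit over 8 groups. CPM were computed on TMM-normalised sizes over 39 libraries. The TMM factors were 0.6426 to 0.8442 in batch I14 and 1.088 to 1.212 in the I30 controls, and a lower factor raises the CPM of a library. Fits were tested on simulated counts at a single dispersion (0.03). The changes put in were larger than those of sod2, glrx, prdx5 and gpx4a, in genes with ample counts. That test does not show how changes under 1.5-fold, or in genes near 1 CPM, are recovered. Figures were drawn with matplotlib 3.10.9.

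Replicates differed by more than counting noise (81 pairs, with a chi-square of 3.88 to 124 per degree of freedom). Each is a numbered replicate by its label and a pool of embryos by the study's methods. The p-values measure the spread between pools within a batch and do not cover repeat irradiations. Depth per library is given with the results. Values by library or by range are given, at the dose rates concerned, for genes called in any comparison or in the interaction and for the 3 largest estimates of each comparison. Genes of the related lists are named only if called, up to 3 a list and comparison. A called gene of these lists is counted but not reported here by name. Values of other genes, or of these genes in further comparisons, were chosen after they were seen. The genes and all lists were chosen with earlier results of these data known. Alternatives were the kept libraries, DESeq2, RLE size factors, no filter or one of 1 CPM, counts on either strand, the DEG rule, the joint fit, counts thinned to the lowest total, a replicate block, and fits without 1 library.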

Additional observations from a re-analysis of the deposited data

Results flagged for a closer look

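In 6 of 98 groups of 4 to 6 libraries that were checked, 1 library stood far from the rest (chance gives about 1 in 20). Control replicate 2 of I32 did so for gpx4a (36.84 CPM, the others 23.69 to 26.95), gpx4b (221.7 CPM, the others 160.9 to 182.3), KEAP1 (78.56 CPM, the others 55.2 to 58.39) and gpx1a (3.775 CPM, the others 1.784 to 2.418). Control replicate 1 of I13 stood apart for hmox2b (5.678 CPM, the others 3.128 to 3.461), and control replicate 5 of I30 for srxn1 (1.393 CPM, the others 0.1964 to 0.4595).

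The exposure effect at 5 mGy/h differed from that at 0.5 mGy/h by the edgeR interaction for gpx4a (0.7852), PRDX1 (ENSDARG00000025350, 0.7022), gpx4b (0.6973) and glrx3 (0.3304), each difference given on the log2 scale as 5 minus 0.5 mGy/h. Batch and dose rate cannot be told apart in these differences.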

How the results depend on the processing

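Counts of called genes moved more with the processing than estimates did. At 0.005 mGy/h, where no gene was called, DESeq2 called 137 of all genes, a fit with no filter on low counts 52, the joint fit over 8 groups 35, and fits without 1 library from 0 to 155 (155 without control replicate 1), none of them a defence gene. At 0.05 mGy/h the count over all genes was 3 in the kept libraries, 2 with DESeq2, 0 by the DEG rule, and 0 to 1 without 1 library.

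At 0.5 mGy/h the defence genes called lower were 4 in the kept libraries, 7 with DESeq2, 1 with counts on either strand, 1 with counts thinned to the lowest total, 0 in the joint fit, 0 by the DEG rule and 0 to 5 without 1 library. Those called higher were 1 in the kept libraries, 1 with DESeq2 and 0 to 1 without 1 library. The count over all genes was 1752 (11.6% of those tested) in the kept libraries, 1846 (13.2%) with DESeq2 and 62 (0.416%) by the DEG rule. It was 385 in the joint fit, of 17255 tested. Without 1 library it was 225 to 1806 (225 without exposed replicate 4, 1806 without exposed replicate 3). No share over all genes is given for counts on either strand or thinned counts, so those calls have no background here.

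At 5 mGy/h the defence genes called higher were 8 in the kept libraries, 5 with DESeq2, 4 with no filter, 1 with counts on either strand, 0 by the DEG rule and 0 to 6 without 1 library (6 without control replicate 2). Those called lower were 1 in the kept libraries, 1 with a filter of at least 1 CPM in every library and 0 to 1 without 1 library. The count over all genes was 3690 (25.4% of those tested) in the kept libraries, 2235 (17%) with DESeq2 and 80 (0.533%) by the DEG rule. Without 1 library it was 297 to 2428 (297 without control replicate 3 or exposed replicate 3, 2428 without control replicate 2). No share over all genes is given for no filter, counts on either strand or the filter of 1 CPM, so those calls have no background here. The interaction was called for 9 defence genes of 38 in the kept libraries (23.7%), beside 18.1% of all genes. Without 1 library it was called for 1 to 7 (1 without exposed replicate 1 of I30, 7 without control replicate 2 of I30), beside 5.52% to 18% of all genes. The batch difference was called for 25 to 29 defence genes, and no share over all genes is given beside these.

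Correlations did not settle whether replicate numbers pair the samples, and the main fits took no account of these numbers. Same-numbered pools correlated at a mean r of 0.13, 0.046, 0.13 and 0.041 in order of dose rate, with the lowest pair at -0.476. In the same order, 2 of 3, 2 of 4, 3 of 6 and 1 of 6 correlated best with their own number. At 0.5 mGy/h replicates 1, 2 and 3 did so (r of 0.171, 0.224 and 0.439). With the replicate block, 459, 1995 and 626 of all genes were called at 0.005, 0.5 and 5 mGy/h, beside 0, 1120 and 1366 without it. Of the defence genes, 1 was lower at the first (hmox2b, -1.26), 5 lower and 1 higher at the second and 1 higher at the third. At the first the block rested on 3 pairs, as control replicate 1 of I14 had no exposed partner. No share over all genes is given for the block, so its calls of defence genes have no background here. The block at 0.05 mGy/h is not reported here.

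The direction of the uncalled estimate of prdx5 at 0.5 mGy/h turned without exposed replicate 6 (-0.0313) or control replicate 3 (-0.03147), in a range up to 0.09676, and that of sod2 at 5 mGy/h without exposed replicate 3 (-0.01696), in a range up to 0.1162. The cause of these shifts was not tested. RLE size factors ended 1 call, the interaction of glrx3 (adjusted p = 0.0524). A search of promoter motifs was not run. Genes under about 1 CPM could show only large changes at this depth.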
